A study of Mus musculus with 6 samples.

Results

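The genes described here are those that stood clearly above all other libraries in a single RNA library, that of dox-treated replicate 3. They were chosen by their deposited log2 expression values alone. A gene was taken when its log2 CPM in that library was at least 2, which is 4 CPM, and at least 1 log2 unit above the highest of the other 5 libraries, which is a margin of at least 2-fold. CPM is the number of reads per 1000000 reads of a normalized library size. Of 12101 genes, 5 met the rule, which is 0.0413%. The 4 that are described are *Eda2r*, *Srp54a*, *Gm14434* and *RP24-92H14.2*. They were thus selected on the values of dox-treated replicate 3 against the other 5 libraries, so that they were high there is a description and was not tested. The question is which blood cell types or states they mark, as a reading of the cell composition of that library.

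The libraries were made from adult megakaryocyte–erythroid progenitors (MEPs) of mice labelled as strain CD-1. All the mice, controls included, carried the reverse tetracycline transactivator M2rtTA in the Rosa26 locus together with a *Nanog* transgene under a tetO promoter downstream of the Col1a1 locus. Treated mice drank doxycycline (dox) for 5 days and untreated mice of the same genotype did not, with 3 replicates in each group. The transactivator is expressed in many tissues, so the transgene was not limited to MEPs. Cells were sorted from bone marrow with antibodies to CD16/32, CD34, Sca-1, c-kit and lineage antigens, by which MEPs are usually taken as c-kit+ cells that lack the other antigens. The labels do not say that the replicates came from separate animals, and p-values below measure only the spread between these samples.

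MEPs are bone marrow progenitors that give rise to erythroblasts, which mature into red blood cells, and to megakaryocytes, which shed platelets. In bulk RNA of sorted cells, a few cells of another type that enter the gate carry their own transcripts with them, such as neutrophil granule proteins, immunoglobulins or globins, and these transcripts rise together in the library concerned. Fewer cells of a type and less RNA per cell cannot be told apart in such data. Marker lists of blood cell types and of cell states are therefore read below in each library beside the genes of the set.

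The genes of the set have separate roles. *Eda2r* encodes the receptor of ectodysplasin A2, a member of the tumor necrosis factor receptor family, and is a known transcriptional target of p53. *Srp54a* encodes the SRP54 subunit of the signal recognition particle, which brings ribosomes with nascent secretory proteins to the endoplasmic reticulum. *Gm14434* is a gene model in a cluster of closely related zinc-finger genes on chromosome 2. *RP24-92H14.2* is a processed pseudogene, a copy of a spliced messenger RNA that was inserted back into the genome, here of the ribosomal protein gene *Rpl12*.

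In the NCBIM37 assembly, *Eda2r* (ENSMUSG00000034457) lies at chrX:94529179-94572555 on the minus strand. *Gm14434* (ENSMUSG00000078881) lies at chr2:176266735-176280240 on the plus strand. *Srp54a* (ENSMUSG00000021020) lies at chr12:56181557-56214680 on the plus strand, within the annotated span of *Srp54b* on the same strand, which runs from 56181483 to 56290200. *RP24-92H14.2* (ENSMUSG00000092358) is a single exon at chr14:58316850-58317056 on the plus strand, inside the span of *Lats2* on the other strand, from 58260914 to 58377225. The use of strand in counting is not given in the sources used here, so reads of *RP24-92H14.2* and of *Lats2* RNA at this place cannot be told apart.

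For 3 of these genes the sequence itself is what a reader needs to see, because another gene carries nearly the same one. The coding sequence of *Srp54a* has 1515 bases and is identical to that of *Srp54b*, with 0 differences. That of *Srp54c* differs from it at 6 bases, which are T501C, T945C, G946A, T965G, A1197T and G1249A, with the base of *Srp54a* first and positions counted from the start codon. The stretch from base 931 to base 990 holds 3 of these, shown in capitals, and is printed to show that no base in it separates *Srp54a* from *Srp54b*.
Srp54a: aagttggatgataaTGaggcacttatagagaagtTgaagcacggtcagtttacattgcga
Srp54b: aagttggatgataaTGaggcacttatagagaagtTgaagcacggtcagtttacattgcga
Srp54c: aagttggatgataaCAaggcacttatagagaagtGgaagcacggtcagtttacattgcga

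The 207 bases of *RP24-92H14.2* match the last 207 bases of the *Rpl12* coding sequence, from its base 292 to its base 498, except at 2 places. These are G1A and A136G, with the base of the pseudogene first and positions counted from its first base, and they stand in capitals below. A read from the interior of either sequence that does not cover them fits both.
RP24-92H14.2: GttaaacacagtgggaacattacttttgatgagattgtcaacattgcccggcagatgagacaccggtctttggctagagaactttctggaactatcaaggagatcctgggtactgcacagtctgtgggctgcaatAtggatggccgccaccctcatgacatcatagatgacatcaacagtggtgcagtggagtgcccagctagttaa
Rpl12: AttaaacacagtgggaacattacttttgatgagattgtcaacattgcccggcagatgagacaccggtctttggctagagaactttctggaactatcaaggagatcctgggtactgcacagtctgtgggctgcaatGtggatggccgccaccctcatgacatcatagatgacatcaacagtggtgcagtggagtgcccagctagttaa

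The longest annotated coding sequence of *Gm14434* has 1497 bases, and *Gm2026* and *Gm14308* each have an annotated coding sequence that is identical to it over its whole length. The first 60 bases, from the start codon, are given once for the 3 genes.
Gm14434: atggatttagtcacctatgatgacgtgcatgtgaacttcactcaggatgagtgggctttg

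Sequence sharing was measured for every gene as the share of the stretches of 31 bases in its annotated transcripts that also occur in another annotated gene. The share was 100% for *Srp54a*, 100% for *Gm14434* and 82.5% for *RP24-92H14.2*. It was 0% for *Eda2r*. Over all listed genes with an annotation the median share was 0.675%, and 14.2% of listed genes had a share of at least 20%. By this measure 3 of the 5 genes, *Srp54a*, *Gm14434* and *RP24-92H14.2*, were copies, and *Eda2r* was not. The same 3 genes had 0 reads in at least 1 of the other libraries, as had 97 listed genes in all (0.802%).

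*Eda2r* was low in every library but dox-treated replicate 3. It had 79 reads there, 21 and 16 reads in dox-treated replicates 1 and 2, and 9, 24 and 10 reads in untreated replicates 1, 2 and 3. These are 5.07 CPM in dox-treated replicate 3, 1.55 and 1.19 CPM in the other dox-treated replicates, and 0.700, 1.77 and 0.910 CPM in the untreated replicates. The 2 lower dox-treated replicates fell within the range of the untreated ones, whose mean was 1.13 ± 0.57 CPM (SD, n = 3). The exact Poisson 95% interval in dox-treated replicate 3 was 4.01 to 6.32 CPM, and that of the next highest library, untreated replicate 2, was 1.14 to 2.64 CPM. Such intervals cover counting error only, since PCR can make several reads from a molecule. The margin was 1.49 on the log2 scale, or 2.82-fold.

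*Srp54a* had 818 reads in dox-treated replicate 3, 26 and 321 in dox-treated replicates 1 and 2, and 48, 83 and 0 in untreated replicates 1, 2 and 3. Its level was 52.5 CPM in dox-treated replicate 3 and 23.9 CPM in dox-treated replicate 2, and between 0 and 6.13 CPM in the other 4 libraries. The 0 reads in untreated replicate 3 allow up to 0.273 CPM, the value of 3 reads. The dox-treated libraries thus included 2 that were above all untreated ones and 1 that was inside their range.

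*Gm14434* had 141 reads in dox-treated replicate 3, 26 and 0 in dox-treated replicates 1 and 2, and 3, 43 and 12 in untreated replicates 1, 2 and 3. The corresponding levels were 9.05 CPM in dox-treated replicate 3 and between 0 and 3.18 CPM elsewhere. *RP24-92H14.2* had 172 reads in dox-treated replicate 3, 64 and 0 in dox-treated replicates 1 and 2, and 12, 21 and 28 in untreated replicates 1, 2 and 3, which is 11.0 CPM against 0 to 4.71 CPM. For both genes dox-treated replicate 2 was the lowest library, and its 0 reads allow up to 0.223 CPM.

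**Figure D1:**
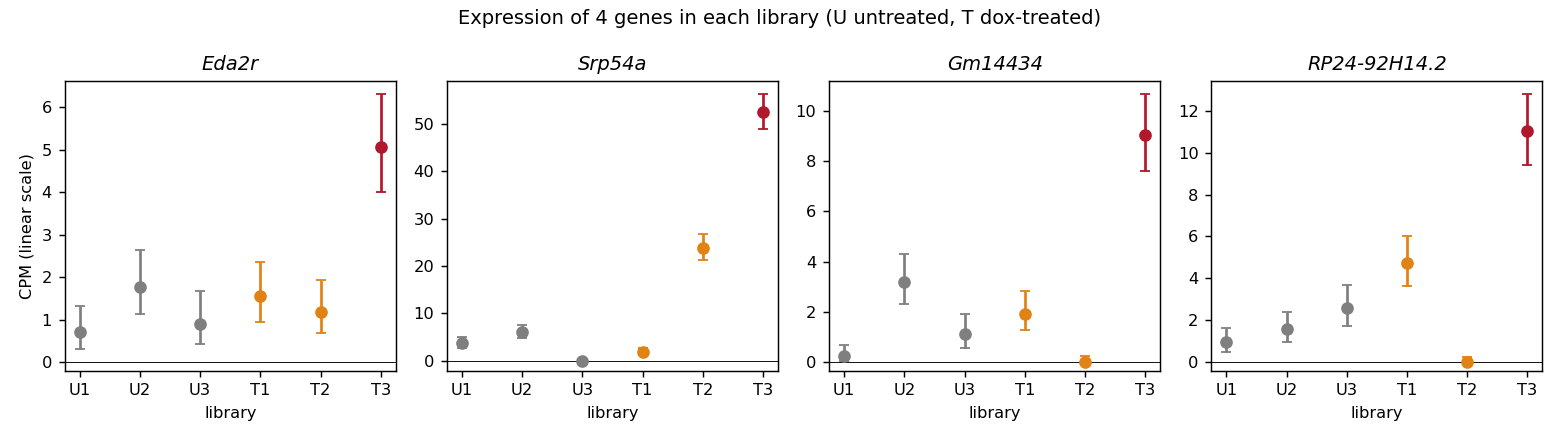
CPM (linear axis, a separate scale for each gene) of 4 genes of the set in untreated replicates (U1 to U3, grey) and dox-treated replicates (T1 to T3, orange, with T3 in red), where bars are exact Poisson 95% intervals for counting error and, at 0 reads, end at the value of 3 reads. T3 is the highest point in each panel by the rule, at 5.07 CPM for Eda2r and 52.5 CPM for Srp54a, while the order of the other 5 libraries differs from gene to gene.

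The other 5 libraries were far apart for the copies. The SD of the log2 values of those libraries around their group means was 3.51 for *Srp54a*, 2.91 for *RP24-92H14.2* and 2.75 for *Gm14434*, against a median of 0.143 over all genes. It was 0.564 for *Eda2r*. These SDs were at or above the 92.2 percentile of all genes for the 4 genes.

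The reads of the copies were then added up with those of the listed genes that hold at least 20% of their stretches of 31 bases, as a level that does not depend on how reads were divided among these listed genes. Both annotated copies of *Srp54a* were listed, against 11 of 18 for *Gm14434* and 3 of 10 for *RP24-92H14.2*, whose sums still depend on how reads were divided with the unlisted copies. *Srp54b* had 2665 reads in dox-treated replicate 3 and between 2084 and 2761 in the other libraries, and *Srp54c* had 1587 and between 872 and 1231. The sum over *Srp54a*, *Srp54b* and *Srp54c* was 325 CPM in dox-treated replicate 3, 230 and 245 CPM in dox-treated replicates 1 and 2, and 312, 301 and 279 CPM in untreated replicates 1, 2 and 3. The sum in dox-treated replicate 3 was thus 1.04-fold above that of the highest other library, a log2 margin of 0.06, where for *Srp54a* alone it was 2.19-fold above. *Srp54a* took 16.1% of the sum in dox-treated replicate 3, 9.76% in dox-treated replicate 2 and at most 2.04% in the other 4 libraries.

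For *Gm14434* and 11 listed copies, the sum was 158 CPM in dox-treated replicate 3, 213 and 170 CPM in dox-treated replicates 1 and 2, and 125, 138 and 116 CPM in untreated replicates 1, 2 and 3. In the sum, dox-treated replicate 3 was below both of the other dox-treated replicates, at 0.741 times the highest of them. *Gm4631* held most of these reads, with 1545 in dox-treated replicate 3. *Gm2026*, which shares the coding sequence printed above, had 25 reads in dox-treated replicate 3 and 132 in dox-treated replicate 1, while *Gm14434* had 141 and 26 in the same libraries.

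For *RP24-92H14.2* with *Rpl12*, *Gm10275* and *Gm9396*, the sum was 1852 CPM in dox-treated replicate 3, 1396 and 1357 CPM in dox-treated replicates 1 and 2, and 1521, 1405 and 1515 CPM in untreated replicates 1, 2 and 3. The sum was 1.22-fold above the next highest library, a margin of 0.28 on the log2 scale. Dox-treated replicate 3 was highest and dox-treated replicate 2 lowest in the sum as in its member, while the order of the other 4 libraries was another one. *Rpl12* itself, a protein of the large ribosomal subunit, had 19034 reads in dox-treated replicate 3 and a margin of 0.28. *RP24-92H14.2* held 0.596% of the sum in dox-treated replicate 3 and between 0% and 0.338% in the others.

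**Figure D2:**
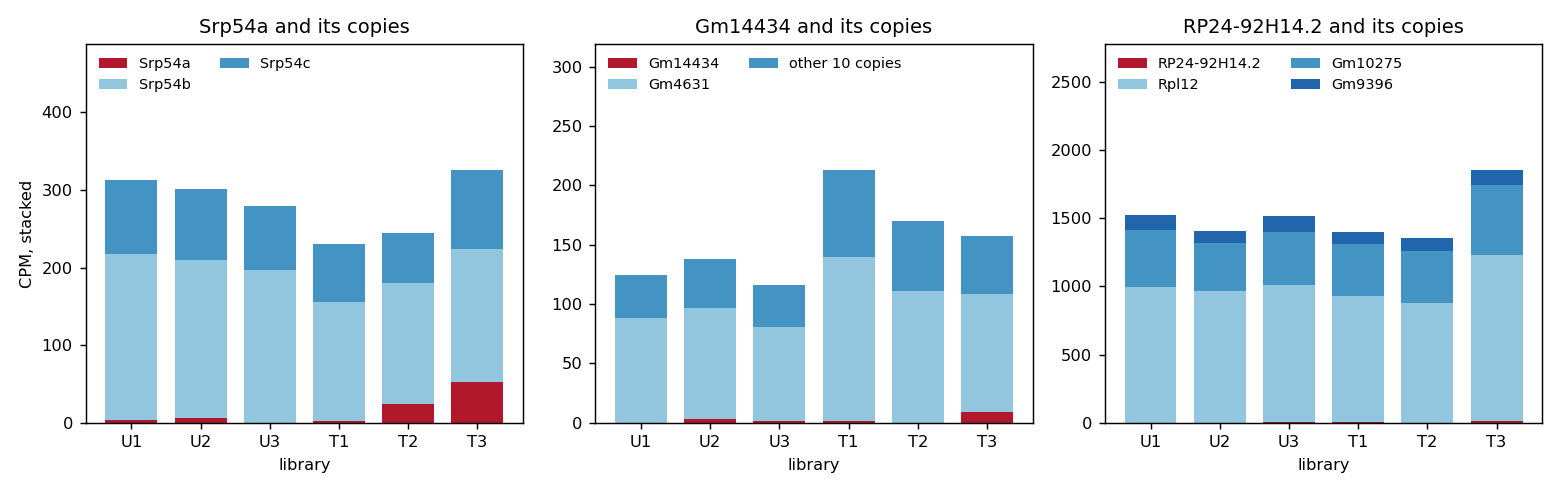
Stacked CPM (linear axes from 0) of the 3 genes with copies (red, at the bottom) and their listed copies (blue) in the untreated (U1 to U3) and dox-treated (T1 to T3) libraries. The red share is largest in T3, 16.1% for Srp54a, while the height of the whole bar in T3 is 1.04-fold the next highest for Srp54a, 1.22-fold for RP24-92H14.2 and 0.741-fold the highest for Gm14434.

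Dox-treated replicates 1 and 2 were also compared with the 3 untreated replicates. These libraries entered the rule only through the highest of their values. The test was limma on the deposited log2 values of 12088 genes with Benjamini–Hochberg adjustment over all of them. In this fit 14.9% of all genes were higher with dox and 14% were lower at an adjusted p under 0.05. Of the 5 genes of the set, 0 were higher and 0 were lower. The rule leaves out genes raised alike in every dox-treated library, so it favours a low count of higher genes. Nothing is read from that count about a dox effect. By an unadjusted p under 0.05, 1 of the 5 was higher, beside 22.5% of all genes. With voom precision weights, where single values expected to vary more weigh less within the fit of a gene, 1 was higher at an adjusted p under 0.05, beside 19.9% of all genes. Both counts are near the background. The count was also 1 with a mean-variance trend, beside 18.5%, at a threshold of 0.1, beside 21.7%, and without untreated replicate 1, beside 8.99% of all genes. Without dox-treated replicate 1, 1 was lower, beside 0.794% of all genes, which was *RP24-92H14.2* with the 0 reads of the lone dox-treated library left. *Eda2r* differed by 0.36 (SE 0.41, adjusted p = 0.52, limma). The copies had differences of 2.75 (SE 2.54) for *Srp54a*, -1.89 (SE 1.99) for *Gm14434* and -1.92 (SE 2.10) for *RP24-92H14.2* on the log2 scale, with adjusted p-values of 0.43, 0.49 and 0.51 in limma. For these 3 genes the SE was about as wide as the difference itself, and a difference in either direction was not detectable. The values also rested on single libraries: without dox-treated replicate 2 the difference was 0.97 for *Gm14434* and 1.58 for *RP24-92H14.2*, and that of *Srp54a* was between 0.50 without untreated replicate 3 and 4.55 without dox-treated replicate 1.

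In a limma fit of all 6 libraries, the comparison that the study's design implies, 4.59% of genes were higher with dox and 3.18% lower. Of the set 0 were higher. With a mean-variance trend 1 was higher, beside 7.52% of all genes, and at a threshold of 0.1 also 1, beside 10.5%. The rule used these libraries, so nothing is read from these counts.

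The threshold left few genes near it. Just inside it stood *Srp54a* with a margin of 1.13 and *RP24-92H14.2* with 1.22. Just outside it stood *1700023E05Rik* with 0.96, *Gm16042*, a pseudogene with a shared share of 100%, with 0.95, and *Tbpl1*, a TATA-box binding protein-like factor, with 0.86. *Tbpl1* had 1213 reads in dox-treated replicate 3 and between 410 and 564 in the other libraries.

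The same rule applied to each other library found 19 genes in dox-treated replicate 1, 13 in dox-treated replicate 2, and 16, 12 and 3 in untreated replicates 1, 2 and 3. Dox-treated replicate 3 therefore had fewer such genes than each other library except untreated replicate 3. Copies by the measure above were 3 of the 19, 0 of the 13, 6 of the 16, 5 of the 12 and 1 of the 3. At small margins the order was another one. The highest library was untreated replicate 2 for 2952 genes, or 24.4%, and dox-treated replicate 3 for 2482 genes, or 20.5%. In dox-treated replicate 3, 490 genes stood at least 0.25 above the rest with at least 4 CPM, more than in the other libraries, where the numbers were between 105 and 431. At a margin of 0.5 it had 49, against 24 to 134.

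**Figure D3:**
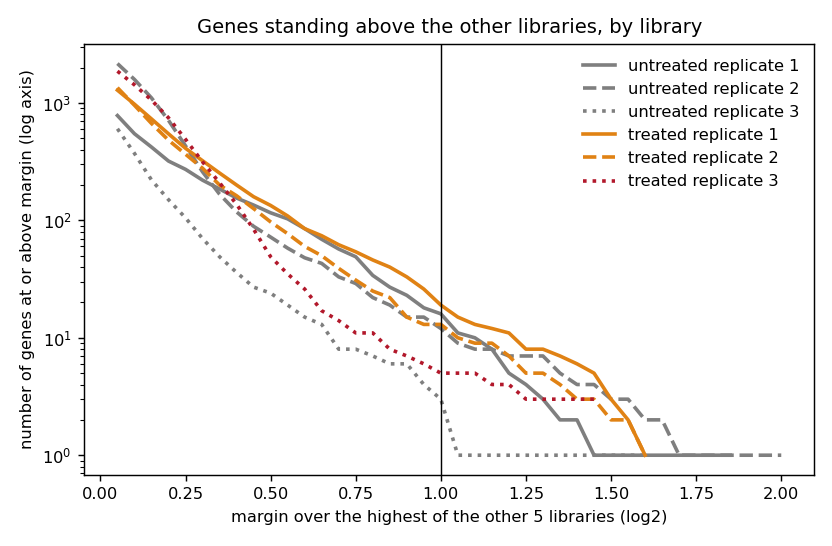
Number of genes (log axis) at or above each margin over the highest of the other 5 libraries (log2), for each library, among genes with at least 4 CPM in it; the vertical line marks the margin of 1. At that line dox-treated replicate 3 (red, dotted) has 5 genes, against 19 and 13 in the other dox-treated and 16, 12 and 3 in the untreated replicates, while at 0.25 it has 490, the most of the 6.

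The depth and the sort of these libraries were as follows. Listed genes took from 11264803 to 16153600 reads in a library, the most in dox-treated replicate 3, so a read was worth 0.0642 CPM there and up to 0.091 CPM elsewhere. *Nanog* was at 1024 CPM in dox-treated replicate 3, 1256 and 1460 CPM in dox-treated replicates 1 and 2, and at most 0.961 CPM in untreated ones. Of the sort markers, *Kit* stood at 323 CPM in dox-treated replicate 3 and at 304 to 486 CPM in the other libraries. *Fcgr3*, which encodes CD16, was lowest in dox-treated replicate 3, at 6.10 CPM against 10.2 to 27.9 CPM elsewhere, and *Ly6a*, which encodes Sca-1, was not analysed here. *Cd34* stood at 62.8 CPM in it, 172 and 129 CPM in dox-treated replicates 1 and 2, and 23.8 to 57.6 CPM in the untreated replicates. The erythroid factors *Gata1* and *Klf1* stood at 207 and 311 CPM, both above the other dox-treated and below all untreated libraries.

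Of the 27 marker lists, the 15 lists of blood cell types and tissues held 0 of the 5 genes. Among the 49 genes with a margin of at least 0.5, again 0 were in any of them. The 15 lists together held 245 different measured genes of the 12101. With so few, counts of 0 of 5 and 0 of 49 are near the background, and nothing is read from them. For 22 of the 245 genes, or 8.98%, dox-treated replicate 3 was the highest library, beside 20.5% of all genes, and 8 stood at least 0.25 above the rest at any level, or 3.27%, beside 4.39% of all genes. The late erythroblast list alone held 11 of the 22 and 5 of the 8. For 32.4% of its 34 measured genes dox-treated replicate 3 was the highest library, a larger share than of all genes, which was not tested. In this list it was above all untreated libraries for 16 genes and below all of them for 12. The largest margin among the 245 genes was 0.46, for *Col5a1*, a fibrillar collagen chain of the stromal list, which had 154 CPM in dox-treated replicate 3 and 98.8 to 112 CPM elsewhere. Next to it was *Slc4a1*, the band 3 anion exchanger of red cells, with a margin of 0.45, at 15.6 CPM and 6.70 to 11.4 CPM elsewhere. Both were named after their values were seen.

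The erythroid lists bear on the sort most directly. The 34 measured late erythroblast genes summed to 11485 CPM in dox-treated replicate 3, 6913 and 6942 CPM in dox-treated replicates 1 and 2, and 10717, 10778 and 10042 CPM in untreated replicates 1, 2 and 3. It was the highest of the 6 libraries by 1.07-fold, and was above the other dox-treated replicates, which lay below every untreated one. The 19 genes of the erythroid-megakaryocyte progenitor list summed to 4361 CPM in it, between the 4238 and 4521 CPM of the other dox-treated replicates and below the 4848 to 5247 CPM of the untreated replicates.

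The megakaryocyte and platelet list, with 22 measured genes, summed to 458 CPM in dox-treated replicate 3, 954 and 961 CPM in dox-treated replicates 1 and 2 and 214 to 329 CPM in the untreated replicates. This was above the untreated range but at 0.476 times the highest dox-treated library. Its stem and multipotent progenitor list of 32 genes stood likewise at 1007 CPM, beside 1590 and 1630 CPM in dox-treated replicates 1 and 2 and 715 to 843 CPM without dox. In these lists, as in the late erythroblast list, dox-treated replicate 3 was nearer to the untreated libraries than the other dox-treated replicates were, which was not so for the erythroid-megakaryocyte progenitor list. This was not limited to lists of cell types. The S phase and mitosis list summed to 11218 CPM in dox-treated replicate 3, 7684 and 7481 CPM in dox-treated replicates 1 and 2 and 10584 to 11907 CPM without dox. The hypoxia response and replication-dependent histone lists, given below, did not have this order.

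The lists of white cells and their progenitors were not highest in dox-treated replicate 3. The granulocyte-monocyte progenitor list of 19 genes summed to 749 CPM in dox-treated replicate 3, the lowest of the 6, where dox-treated replicates 1 and 2 had 1174 and 1007 CPM and the untreated replicates 2641 to 6093 CPM. The mature neutrophil list stood at 72.8 CPM, with 63.8 and 170 CPM in the other dox-treated replicates and 348 to 702 CPM in the untreated ones. The monocyte and macrophage list stood at 297 CPM, above the 282 and 256 CPM of dox-treated replicates 1 and 2 and below the 319 to 649 CPM of the untreated replicates. This sum rested on its most expressed gene, without which dox-treated replicate 3 was at -2.10 in place of -1.13 log2 units relative to the highest library. The mast cell and basophil list of 10 measured genes stood at 253 CPM, above the 124 to 164 CPM of the untreated replicates and below the 367 and 312 CPM of dox-treated replicates 1 and 2. The dendritic and plasmacytoid list stood at 175 CPM, the lowest of the 6, against 179 to 217 CPM. For B cells the sum was 143 CPM, within the 121 to 149 CPM of the untreated replicates and below the 252 and 173 CPM of dox-treated replicates 1 and 2. For T and NK cells it was 43.6 CPM, where the other libraries had 29.5 to 101 CPM.

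Over the 27 lists of cell types and states, dox-treated replicate 3 had the highest sum in 3, the lowest in 3 and a sum within the other libraries in 21. The 3 with the highest sum were late erythroblast, hypoxia response at 1538 CPM or 1.13-fold above the next library, and replication-dependent histone at 131 CPM or 1.01-fold above it. The histone sum fell to 0.14 log2 units below that of dox-treated replicate 2 (-0.14) with the reads on listed genes as library size, and the hypoxia sum to 0.09 below the highest other library (-0.09) without its most expressed gene. Measurement of the lists rests on the genes in the deposited table, and markers with no value in it were not analysed here.

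**Figure D4:**
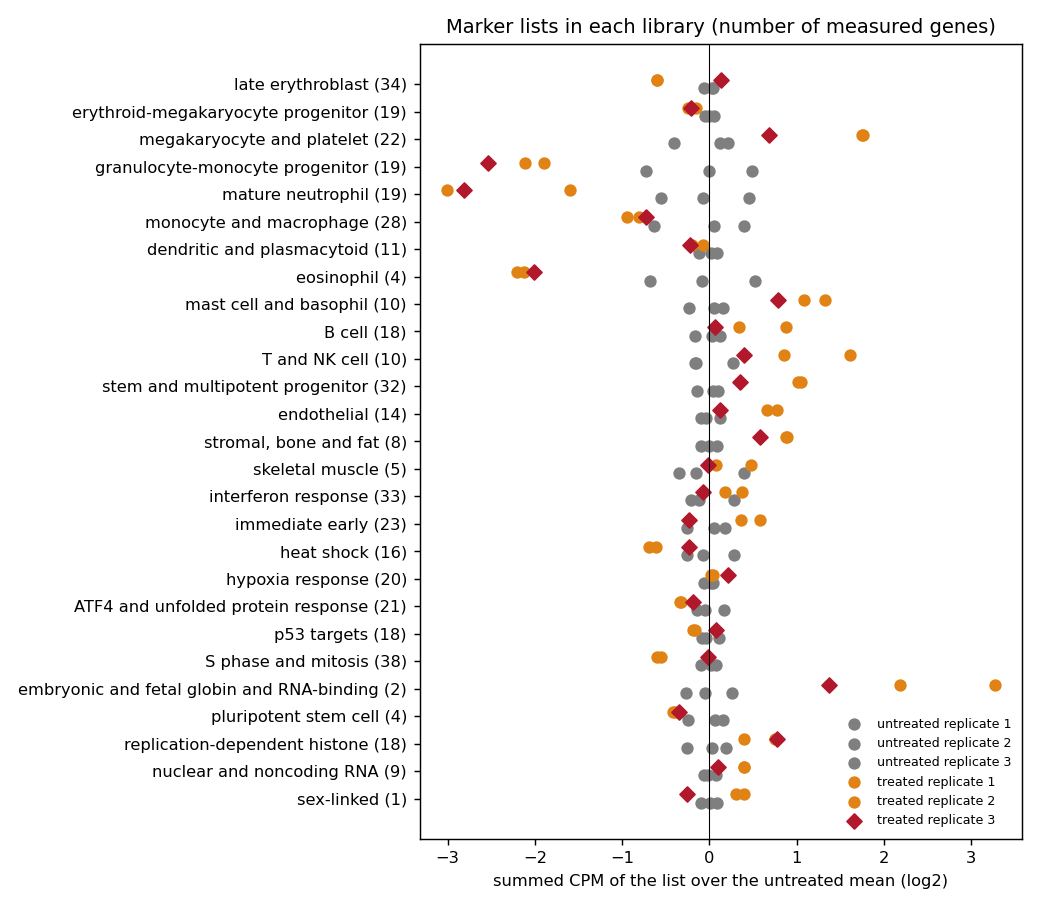
Summed CPM of each of 27 marker lists over the mean of the untreated replicates (log2), per library, with the number of measured genes in parentheses; grey circles are untreated, orange circles dox-treated replicates 1 and 2, and red diamonds dox-treated replicate 3. The red diamond is the rightmost point in 3 lists, late erythroblast, hypoxia response and replication-dependent histone, and the leftmost in 3.

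The set met 1 of the 27 lists, that of p53 targets, through *Eda2r*. p53 is a transcription factor that responds to DNA damage and other stress and raises genes of cell cycle arrest, apoptosis and repair. Its 18 measured targets summed to 681 CPM in dox-treated replicate 3, 578 and 569 CPM in dox-treated replicates 1 and 2, and 611, 698 and 631 CPM in the untreated replicates, so the sum was within the other libraries. It was the highest library for 4 of the 18, which were *Eda2r*, *Zmat3*, *Ccng1* and *Sesn1*. This is 22.2%, beside 20.5% of all genes, and *Eda2r* is among the 4 by the rule. *Zmat3*, an RNA-binding p53 target, was at 5.19 log2 CPM in it, 4.51 and 4.50 in dox-treated replicates 1 and 2 and 4.08 to 4.29 in the untreated replicates, a margin of 0.69. *Ccng1*, cyclin G1, had a margin of 0.36 and *Sesn1*, sestrin 1, of 0.24.

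Other p53 targets had their highest value elsewhere. *Mdm2*, the ubiquitin ligase that limits p53, had a log2 CPM of 5.33 in dox-treated replicate 3, lower than in each other library, where it was between 5.44 and 5.94. *Cdkn1a*, the cell cycle inhibitor p21, was at 1.15 in it and between 0.74 and 1.98 in the others. *Fas*, a death receptor, was at 0.25, below the 1.54 and 1.36 of dox-treated replicates 1 and 2 and above the untreated replicates, of which the highest was at -0.37. In the fit without dox-treated replicate 3, 3 of the 18 were higher with dox and 2 lower, beside 14.9% and 14% of all genes, with a median log2 difference of 0.17 beside -0.03 over all genes tested. These counts are near the background and are no result about the list. The genes that were higher were *Trp53inp1*, *Bbc3* and *Fas*, and those that were lower were *Ccng1* and *Aen*. *Trp53* itself was at 253 CPM in dox-treated replicate 3, the lowest of the 6 libraries.

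The 49 genes with a margin of at least 0.5 included several of fatty acid oxidation, the mitochondrial pathway that shortens fatty acids to acetyl-CoA. A list of 31 genes was written after the values of the 49 genes were seen, and is given as a description. Here called the fatty acid oxidation list, it also holds genes outside the pathway, such as the transporter *Cd36* and the thioesterase *Acot1*. Of its 28 measured genes, dox-treated replicate 3 was the highest library for 19, or 67.9%, beside 20.5% of all genes, and 5 were among the 49, which are 0.405% of all genes. Since the list was written with the 49 genes in view, these counts are no evidence of a theme. The 5 of the list among the 49 were *Acaa2*, *Cd36*, *Eci2*, *Acot1* and *Etfdh*. The sum over the list was 2838 CPM in dox-treated replicate 3, 2192 and 2238 CPM in dox-treated replicates 1 and 2, and 2164, 1880 and 1970 CPM in untreated replicates 1, 2 and 3. That of dox-treated replicate 3 was 1.27-fold above the next, and the other dox-treated replicates lay near the highest untreated one.

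The genes of this list fell into separate patterns. *Acaa2*, the mitochondrial thiolase, was at 7.65 log2 CPM in dox-treated replicate 3, 6.88 and 6.92 in dox-treated replicates 1 and 2 and 6.75 to 7.04 in the untreated replicates. *Eci2*, an enoyl-CoA isomerase, was at 7.27 against 6.50 to 6.68 in all the others. For these, dox-treated replicates 1 and 2 were inside the untreated range, as they were for *Eda2r*.

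*Cd36*, a fatty acid transporter, stood at 5.11 log2 CPM in dox-treated replicate 3, 4.44 and 4.50 in dox-treated replicates 1 and 2 and 2.46 to 2.88 in the untreated replicates. *Acot1*, an acyl-CoA thioesterase, stood at 6.16 in it, 5.60 and 5.47 in dox-treated replicates 1 and 2 and 0.10 to 1.79 in the untreated replicates. *Acot1* shares 55.1% of its stretches of 31 bases with other genes, so its level is uncertain. In both genes each dox-treated library was above each untreated one, as it was for 9 of the 28 genes of the list, or 32.1%, beside 17.7% of all genes. This count uses dox-treated replicate 3 as well, so the choice of the list favours it and nothing is read from it.

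Without dox-treated replicate 3, limma called 5 of the 28 higher with dox and 2 lower, beside 14.9% and 14% of all genes, with a median log2 difference of 0.05 beside -0.03 over all genes tested. The count of higher genes is near the background, and nothing is read from it about the list. The 5 were *Acot1* at 4.41 (adjusted p = 0.012), *Cd36* at 1.77 (adjusted p = 0.0062), *Acot2* at 1.18, *Hadh* at 1.05 and *Slc25a20* at 0.73 on the log2 scale. *Acot2* shares 37.9% of its stretches of 31 bases with other genes, so its level is uncertain like that of *Acot1*. The 2 that were lower were *Angptl4* and *Acad9*. The enzyme that transfers fatty acids to carnitine in liver, *Cpt1a*, differed by 0.79 (adjusted p = 0.10, limma).

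**Figure D5:**
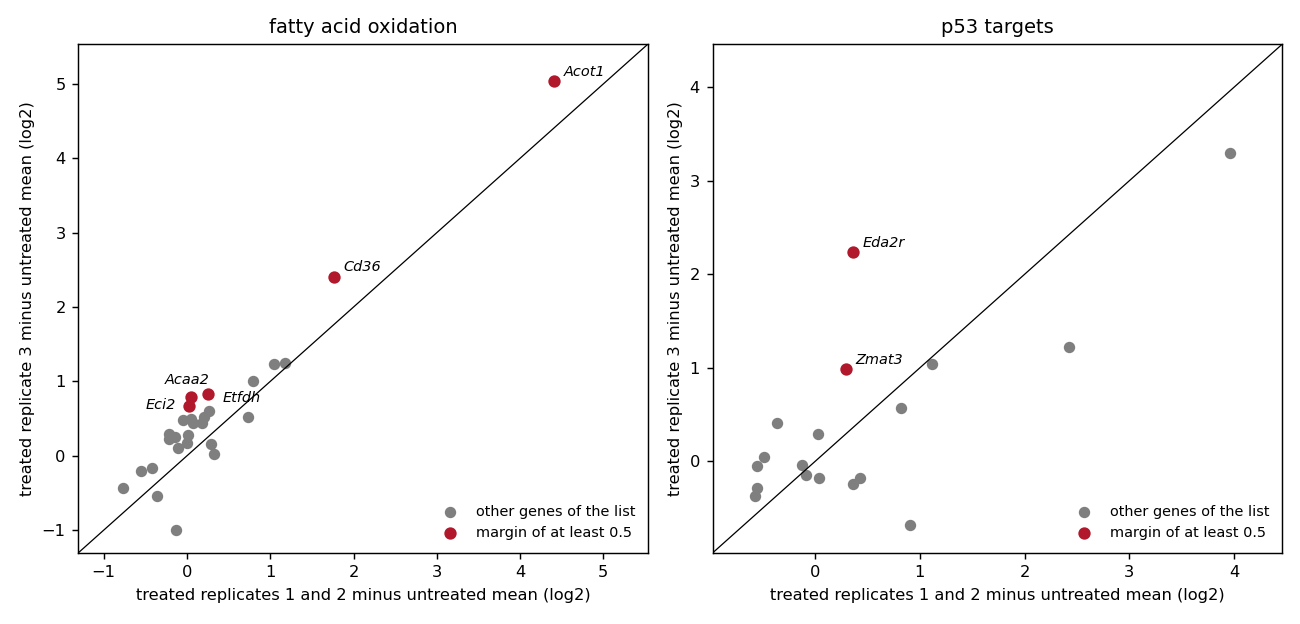
Difference from the untreated mean (log2) in dox-treated replicate 3 (vertical axis) against the mean of dox-treated replicates 1 and 2 (horizontal axis), for 28 genes of the fatty acid oxidation list (left) and 18 p53 targets (right), with the line of equal values. Genes with a margin of at least 0.5 are in red and named: Cd36 and Acot1 lie to the upper right, and Eda2r and Zmat3 above the line on the left.

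The 49 genes at the relaxed margin, which include the 5, were of mixed kinds. Of these 49, 21 were at least 1 log2 unit above the untreated mean in dox-treated replicate 3, beside 4.22% of all genes, a count that the choice of genes high in this library favours. Of the 49, 13 (26.5%) were copies by the measure above, beside 14.2% of listed genes. They included *Rpl5*, several pseudogenes and the histone genes *Hist1h2ap* and *Hist1h2ao*, which had the same reads in every library and cannot be told apart. Among those with little shared sequence were *Htr2a*, a serotonin receptor, with a margin of 0.81, *Ctsl*, the lysosomal protease cathepsin L, with 0.70, *Ak1*, adenylate kinase 1, with 0.69, and *Aco1*, the iron-responsive cytosolic aconitase, with 0.52. They are named as examples after their values were seen.

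The promoters were searched for motifs of blood cell factors and of the states above. RefSeq's table for GRCm38.p6, a later assembly than that of the files, held promoters of 3 genes of the set, *Eda2r*, *Srp54a* and *Gm14434*, each of 300 bases around the start. It places *Gm14434* on the strand opposite to the annotation of NCBIM37, so that entry may not be the start of the RNA counted here. Both strands were searched. The *Eda2r* window held the KLF motif CCNCNCCC, which stood in 49.5% of all 32851 promoters. It also held the C/EBP motif TTNNGCAA, which stood in 10.8%, and the core promoter motif TATAAA, which stood in 13.6%. *Gm14434* held TTNNGCAA and *Srp54a* none of the 8 motifs, and none of the 3 held the GATA motif AGATAA, which stood in 11.2% of all promoters, or the TAL1 motif CAGATG, which stood in 17.2%. The PU.1 motif GAGGAAGT (3.20% of all promoters), the interferon response motif (3.44%) and the hypoxia motif GACGTG (6.38%) were also absent from these 3 windows. The *Eda2r* promoter, chrX:97377160-97377459 on the minus strand of GRCm38.p6, is shown because *Eda2r* is the gene of the set that has both a list and a sequence of its own. Matches are in capitals, with the C/EBP match next to a KLF match and overlapping none.
Eda2r: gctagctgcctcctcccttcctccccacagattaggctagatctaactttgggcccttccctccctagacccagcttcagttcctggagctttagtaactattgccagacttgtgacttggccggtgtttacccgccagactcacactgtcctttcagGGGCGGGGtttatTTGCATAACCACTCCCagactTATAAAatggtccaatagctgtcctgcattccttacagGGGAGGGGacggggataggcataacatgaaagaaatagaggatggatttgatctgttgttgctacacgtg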

How the data were processed

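RNA was sequenced from sorted adult MEPs, 3 dox-treated and 3 untreated replicates, after a NEBNext Ultra library preparation. The submitters' processing notes name bcl2fastq, cutadapt, RSEM and limma, with NCBIM37 (mm9). The authors deposited log2 values of CPM with 0.5 reads added, for 12101 genes; how library sizes were normalized, how reads that fit several genes were divided and how genes were filtered are not given in the sources used here. RSEM estimates such shares, yet the deposited values correspond to whole reads, which were recovered by scaling to the smallest value in a library (6.6e-09 reads off at most). A single read was worth 0.0642 to 0.091 CPM.

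The rule and all margins used the deposited log2 values. limma (version 3.58.1, R 4.3.3; lmFit, eBayes) was fitted to 12088 genes, those that reached 1 CPM in 3 or more libraries. Adjusted p-values are Benjamini–Hochberg values over all of these, with a threshold of 0.05. Shared stretches of 31 bases were counted on both strands over all annotated transcripts of GENCODE vM1 on NCBIM37, which held 12067 of the listed genes; by its header it rests on an earlier Ensembl release than the gene build that the study's methods name. Genes named were *Nanog* and sort markers, the genes of the set except the fifth, which like some genes taken out of the fatty acid oxidation list is not reported here, those next to the threshold and, as stated, genes chosen after their values were seen. The members, the 27 marker lists and the tests were chosen with earlier results of these data known. Alternatives changed the rule, scaling, reads added, filter, variance model and replicate block, and left out each library; those without copies were added after seeing the data. Tables and figures used Python 3.11.15, pandas 2.3.3, numpy 2.4.6, scipy 1.17.1 and matplotlib 3.10.9.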

Additional observations from a re-analysis of the deposited data

How the results depend on the processing

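The number of genes in the set was 49 at a margin of 0.5 and 0 at a margin of 2, and 11 with quantile normalization. It was between 6 and 12 when 1 of the other libraries was left out, 9 without dox-treated replicate 1 and 12 without dox-treated replicate 2, and in each case the 5 genes were among them. It was 2 without genes that share at least 20% of their stretches of 31 bases, an alternative chosen after seeing the data. With the reads on listed genes as library size it was 4, without *Srp54a*. It was also 4, without *Eda2r* at 2.35 log2 CPM, when dox-treated replicate 3 had to reach at least 3 log2 CPM. The number of members higher with dox, 0 without dox-treated replicate 3, was 1 with a mean-variance trend (18.5% of all genes were higher), 1 with voom precision weights (19.9%) and 1 at a threshold of 0.1 (21.7%), between 0 and 1 when 1 library was left out, and 1 without untreated replicate 1 (8.99%). With all 6 libraries it was 1 with a mean-variance trend (7.52%) and 1 at a threshold of 0.1 (10.5%). The number lower was 1 without dox-treated replicate 1 (0.794% of all genes), where *RP24-92H14.2* rests on the 0 reads of the lone remaining dox-treated library, which is assumed to vary like the others, and 0 when any other library was left out.

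Replicate numbers are shared by the groups, and the labels do not say whether they mark pairs. The correlations of same-numbered libraries' deviations from their group means were 0.019, -0.121 and -0.298. Those of libraries with other numbers were between -0.203 and 0.236. With so few libraries in a group, such values cannot decide whether the numbers mark pairs. With a replicate block the five-library fit called 316 genes higher and 66 lower, against 1801 and 1687, and the fit of all 6 called 53 and 29, against 555 and 384. Members called under the replicate block were 0 in each. With the reads on listed genes as library size, the five-library fit called 2575 higher and 827 lower, and the median of all genes moved by 0.16 on the log2 scale.

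Depth limits *Eda2r*, with 9 to 24 reads in 5 libraries, and *Gm14434*, with 0 to 43. Sums of marker lists depended on single genes for several lists. Without its most expressed gene, the hypoxia sum of dox-treated replicate 3 lay 0.09 below the highest other library on the log2 scale (-0.09) in place of 0.17 above it.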
